A study of Homo sapiens with 96 samples.

Results

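LCP1, TGM2, EDIL3, MPPED2, HMCN1 and ADAMTS12 are 6 of the 19775 genes measured on 96 Affymetrix U133 Plus 2.0 arrays of HaCaT keratinocytes and head and neck carcinoma lines. They were selected on their log2 levels under PBS, which differed widely between the HaCaT lines in an earlier look at these same data, with no stated threshold. The PBS differences between lines are therefore given below as a description with no test, and line differences were tested on scramble siRNA, siEGFR and inhibitor arrays. Comparisons of the inhibitors with PBS share their PBS arrays with the choice, so their p-values and counts for the 6 genes are a description. Where a gene had several annotated probe sets, the one with the greatest average across the construct arrays stands for it, and all values are the deposited log2 expression values.

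HaCaT is a spontaneously immortalized human keratinocyte line. All 4 constructs were made by lentiviral transduction of HaCaT with a CMV-driven vector and puromycin selection: HaCaT-HRAS carried HRASVal12D, HaCaT-PIK3CA carried PIK3CA-HR, HaCaT-EGFR overexpressed EGFR, and HaCaT-Mock carried the empty vector. Each construct is thus 1 selected line, and a difference between 2 constructs cannot be told apart from a difference between 2 transduced and selected populations. Each was treated with afatinib (10 nM), gefitinib (100 nM), cetuximab (100 nM) or PBS, transfected with an siRNA against EGFR (siEGFR) or a scramble siRNA, or given scramble siRNA together with an inhibitor or PBS, mostly in 3 arrays per group. These 89 arrays were set beside 2 SCC1, 2 SCC25 and 2 FaDu arrays (head and neck squamous carcinoma lines) and 1 array of the untransduced HaCaT-Parent. The labels do not say whether arrays of a group came from separate cultures, so p-values measure the spread between arrays, which may be technical.

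EGFR is a receptor tyrosine kinase that passes growth signals to the RAS-MAPK branch, of which HRAS is a switch, and to the PI3K branch, of which PIK3CA encodes a catalytic subunit. Gefitinib and afatinib block the kinase from inside the cell, and cetuximab is an antibody that keeps ligands off the receptor. Activated HRAS signals through the MAPK branch without the receptor. The 6 genes act mostly at the cell's edge and in the matrix around it. LCP1 (L-plastin) bundles actin filaments and is best known from leukocytes, TGM2 is a transglutaminase that crosslinks proteins, ADAMTS12 is a secreted metalloprotease, EDIL3 is a secreted integrin ligand with an RGD motif, HMCN1 (hemicentin 1) is a giant protein of basement membrane junctions, and MPPED2 is a metallophosphoesterase.

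On GRCh38.p14, LCP1 (probe set 208885_at) spans chr13:46125923-46182177 and TGM2 (201042_at) spans chr20:38127385-38168475. ADAMTS12 (226997_at) spans chr5:33523535-33891990 and EDIL3 (225275_at) spans chr5:83940554-84384880. HMCN1 (235944_at) spans chr1:185734391-186190949 and MPPED2 (205413_at) spans chr11:30384079-30586990. RefSeq promoter sequence (250 bases before to 50 after the start site, GRCh38.p14, reverse strand in each case here) was at hand for 4 of the 6 genes. It is printed for the gene pair with the widest HaCaT-HRAS differences in opposite directions (LCP1 and EDIL3) and for the 2 genes whose promoters held a searched motif (ADAMTS12 and MPPED2). The motifs were AP-1 (TGANTCA), the site of the FOS and JUN factors that act downstream of MAPK signalling, and AP-2 (GCCNNNGGC), the site of the factor named in the title of the study. Both strands were searched, both motifs read the same on either strand, and matches are in capitals.
LCP1, chr13:46182128-46182427: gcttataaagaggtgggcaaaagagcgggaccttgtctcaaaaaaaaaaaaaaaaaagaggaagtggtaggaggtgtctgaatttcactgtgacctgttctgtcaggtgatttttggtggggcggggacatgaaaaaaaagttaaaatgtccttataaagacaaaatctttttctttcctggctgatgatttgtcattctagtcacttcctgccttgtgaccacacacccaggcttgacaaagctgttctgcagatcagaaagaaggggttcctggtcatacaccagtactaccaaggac
EDIL3, chr5:84384831-84385130: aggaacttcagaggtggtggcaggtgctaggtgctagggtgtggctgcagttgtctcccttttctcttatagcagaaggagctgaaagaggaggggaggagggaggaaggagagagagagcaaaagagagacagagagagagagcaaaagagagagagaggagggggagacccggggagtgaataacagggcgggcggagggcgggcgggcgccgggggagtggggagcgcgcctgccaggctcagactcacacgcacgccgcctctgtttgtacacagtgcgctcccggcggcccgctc
ADAMTS12, chr5:33891941-33892240: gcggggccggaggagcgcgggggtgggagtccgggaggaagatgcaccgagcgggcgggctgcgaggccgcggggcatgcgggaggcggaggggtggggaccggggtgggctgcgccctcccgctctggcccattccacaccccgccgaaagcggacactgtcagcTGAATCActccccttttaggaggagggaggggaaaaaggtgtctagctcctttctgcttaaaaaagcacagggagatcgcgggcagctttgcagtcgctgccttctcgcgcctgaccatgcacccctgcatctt
MPPED2, chr11:30584673-30584972: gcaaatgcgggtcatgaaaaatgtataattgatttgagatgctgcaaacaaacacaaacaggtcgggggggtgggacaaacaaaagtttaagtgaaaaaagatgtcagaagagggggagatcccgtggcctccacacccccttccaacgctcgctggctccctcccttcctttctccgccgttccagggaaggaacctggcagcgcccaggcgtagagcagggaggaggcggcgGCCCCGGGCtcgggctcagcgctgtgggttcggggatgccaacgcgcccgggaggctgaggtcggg

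ADAMTS12 held an AP-1 match 84 bases before its start site, a motif found in 7.724% of all 34943 promoters of this length. MPPED2 held an AP-2 match in 2 of its 5 annotated promoters, 16 bases before the start site in the one printed and 187 bases before it in the other, against 23.16% of all promoters. The LCP1 promoter and both EDIL3 promoters, of which 1 is printed, held neither. These are matches of letters only.

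The arrays fell into 4 technical batches, named J (53 arrays), E (16), M (26) and P (1), and batch was a term in the fits. EGFR transcript was lower under siEGFR than under scramble siRNA by a mean log2 difference of -1.92 over the 4 lines, and DUSP6 and EGR1, immediate MAPK target genes, were lower under the inhibitors than under PBS by -2.24 and -2.45. The HRAS probe set differed by -0.19 (adjusted p = 0.248) and the EGFR probe set by -0.12 (adjusted p = 0.705) between the construct named for it and HaCaT-Mock under scramble siRNA. Whether these probe sets lie within the constructs was not tested, so they check neither construct. The paper itself reports higher EGFR and HRAS mRNA by RT-PCR in the constructs named for them than in HaCaT-Mock. It also reports raised phospho-EGFR, phospho-MAPK and phospho-AKT on western blots of the EGFR, HRAS and PIK3CA constructs. 4 arrays stood apart. HaCaT-HRAS gefitinib arrays 1 and 2 had array weights of 0.058 and 0.020 in limma. The log2 difference between the 3' and 5' actin control probe sets, a gauge of RNA integrity, was 3.50 and 1.45 in them. It was 2.65 in the FaDu PBS array, the only array of batch P. The array labelled HaCaT-PIK3CA afatinib 1 was most like an array of HaCaT-Mock under scramble siRNA, and the array labelled HaCaT-Mock scramble PBS 1 was most like HaCaT-Mock under gefitinib. Values without these arrays are given for LCP1, and some counts of genes called without them are given at the end. Other results include them. The study's methods describe removing arrays that still did not group with their replicates, and do not say which.

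**Figure D1:**
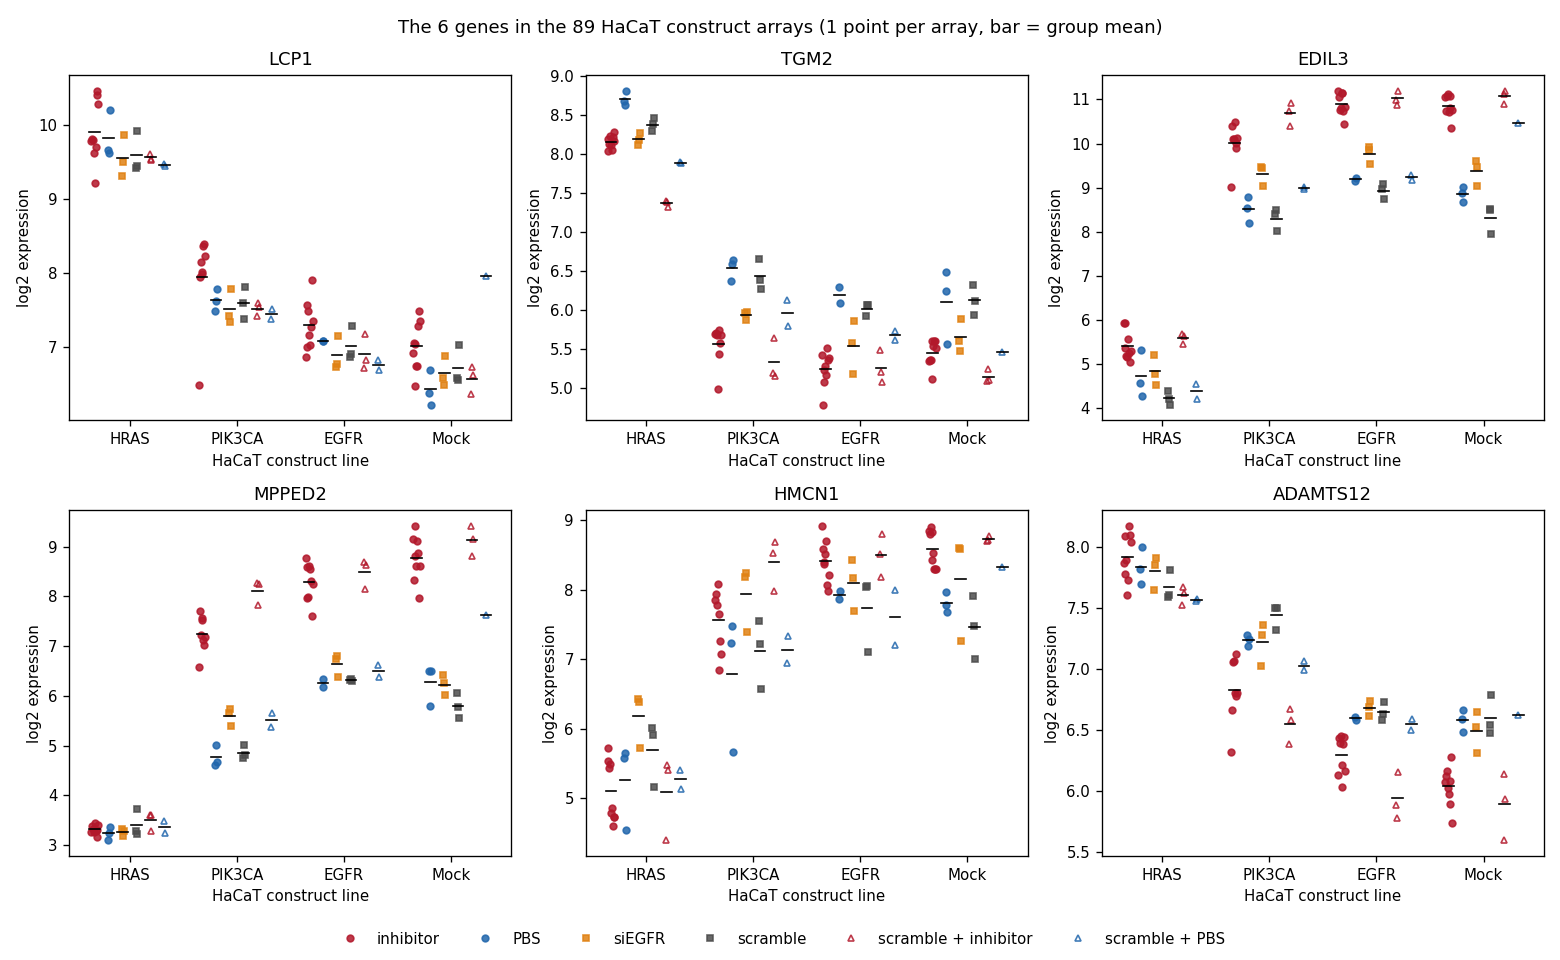
Deposited log2 expression (y axis) of the 6 genes in every HaCaT construct array, by line and condition (x axis), with the bar at the mean of each group. HaCaT-HRAS arrays sit apart from every HaCaT-Mock array in all 6 panels, above them for LCP1, TGM2 and ADAMTS12 and below them for EDIL3, MPPED2 and HMCN1.

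LCP1, the actin bundler, was highest in HaCaT-HRAS and next highest in HaCaT-PIK3CA under PBS and under scramble siRNA. Under PBS its log2 level was 9.66, 9.62 and 10.20 in HaCaT-HRAS, 7.50, 7.63 and 7.79 in HaCaT-PIK3CA, 7.08 and 7.08 in HaCaT-EGFR, and 6.38, 6.70 and 6.23 in HaCaT-Mock. The 4 lines did not overlap under PBS, the values that chose the gene. With scramble siRNA, on arrays that the choice did not use, it was 9.42, 9.45 and 9.92 in HaCaT-HRAS, 7.59, 7.38 and 7.81 in HaCaT-PIK3CA, 6.86, 6.92 and 7.29 in HaCaT-EGFR, and 6.58, 6.55 and 7.03 in HaCaT-Mock. The order was the same, with the HaCaT-EGFR and HaCaT-Mock arrays overlapping. HaCaT-HRAS exceeded HaCaT-Mock by a log2 difference of 2.87, which is 7.33-fold (SE 0.166, adjusted p = 2.16e-20, n = 3 arrays each; limma moderated test with Benjamini-Hochberg adjustment over 19775 genes, as throughout). Within batch J the difference was 2.87 and within batch M 2.89. In these bulk samples, a higher level in each cell cannot be told apart from more cells that carry the transcript. Of 6 measured leukocyte markers 0 passed the same limma test under scramble siRNA and 1 had an unadjusted p under 0.05. Under siEGFR 1 was higher and 1 lower in HaCaT-HRAS than in HaCaT-Mock, where 15.6% of all genes passed. Under the inhibitors 1 was higher, where 38.2% did. The summed linear level of the 6 markers was 181 to 242 in HaCaT-HRAS and 162 to 219 in HaCaT-Mock arrays. Their highest mean log2 level in HaCaT-HRAS was 5.82 (CD53).

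TGM2, the transglutaminase, was high in HaCaT-HRAS alone. Its PBS values were 8.68, 8.63 and 8.81 in HaCaT-HRAS, 6.38, 6.59 and 6.64 in HaCaT-PIK3CA, 6.30 and 6.09 in HaCaT-EGFR, and 6.25, 6.49 and 5.57 in HaCaT-Mock. HaCaT-HRAS lay above all other lines, while HaCaT-PIK3CA and HaCaT-EGFR overlapped HaCaT-Mock. Scramble siRNA arrays gave 8.29, 8.38 and 8.46 in HaCaT-HRAS, 6.65, 6.38 and 6.26 in HaCaT-PIK3CA, 5.93, 6.06 and 6.07 in HaCaT-EGFR, and 6.32, 5.94 and 6.12 in HaCaT-Mock. The difference of HaCaT-HRAS from HaCaT-Mock was 2.25 (SE 0.145, adjusted p = 1.69e-18), or 4.76-fold, and was 2.21 within batch J and 2.34 within batch M. Over all conditions the 23 HaCaT-HRAS arrays spanned 7.32 to 8.81, against 5.08 to 6.49 in the 22 HaCaT-Mock arrays.

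ADAMTS12, the metalloprotease, was higher in both HaCaT-HRAS and HaCaT-PIK3CA. Under PBS it stood at 7.82, 7.69 and 8.0 in HaCaT-HRAS, 7.28, 7.19 and 7.25 in HaCaT-PIK3CA, 6.61 and 6.59 in HaCaT-EGFR, and 6.59, 6.49 and 6.67 in HaCaT-Mock. The first 2 lines did not overlap with each other or with the others, and HaCaT-EGFR lay within the range of HaCaT-Mock. With scramble siRNA it stood at 7.59, 7.61 and 7.81 in HaCaT-HRAS, 7.51, 7.32 and 7.50 in HaCaT-PIK3CA, 6.59, 6.63 and 6.73 in HaCaT-EGFR, and 6.48, 6.55 and 6.79 in HaCaT-Mock. The HaCaT-HRAS difference from HaCaT-Mock was 1.07 (SE 0.0944, adjusted p = 2.23e-13), with 1.09 within batch J and 1.02 within batch M. The HaCaT-PIK3CA difference from HaCaT-Mock was 0.84 (SE 0.0944, adjusted p = 1.01e-07), with 0.90 and 0.71 within the same batches. HaCaT-HRAS and HaCaT-PIK3CA themselves differed by 0.23 under scramble siRNA (95% interval 0.04 to 0.42, adjusted p = 0.11), which did not pass the test.

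EDIL3, the integrin ligand, had the widest line difference of the 6 genes. Its PBS levels were 4.56, 5.31 and 4.26 in HaCaT-HRAS, 8.53, 8.79 and 8.19 in HaCaT-PIK3CA, 9.15 and 9.22 in HaCaT-EGFR, and 8.87, 8.68 and 9.01 in HaCaT-Mock. Every HaCaT-HRAS array lay below every array of the other constructs, and HaCaT-PIK3CA overlapped HaCaT-Mock. Scramble siRNA arrays read 4.38, 4.20 and 4.07 in HaCaT-HRAS, 8.40, 8.48 and 8.0 in HaCaT-PIK3CA, 8.98, 9.07 and 8.74 in HaCaT-EGFR, and 8.49, 8.51 and 7.95 in HaCaT-Mock. HaCaT-HRAS differed from HaCaT-Mock by -4.10 (SE 0.171, adjusted p = 3.03e-26), a level 17.1-fold lower in HaCaT-HRAS. That fold rests on HaCaT-HRAS values below the median gene level of 6.10. The dimmer EDIL3 probe sets, given below, read smaller differences. The within-batch differences were -4.21 in batch J and -3.88 in batch M. HaCaT-PIK3CA differed from HaCaT-Mock by -0.02, which did not pass, with a 95% interval of -0.36 to 0.32.

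HMCN1, the basement membrane protein, was also lower in HaCaT-HRAS, with a wider spread between batches. Under PBS it read 5.59, 5.65 and 4.54 in HaCaT-HRAS, 7.23, 7.48 and 5.67 in HaCaT-PIK3CA, 7.87 and 7.98 in HaCaT-EGFR, and 7.97, 7.77 and 7.67 in HaCaT-Mock. Array 3 of HaCaT-HRAS and of HaCaT-PIK3CA, both from batch M, lay over 1 log2 unit below the first 2, from batch J, and no PBS array of HaCaT-EGFR or HaCaT-Mock came from batch M. Under scramble siRNA, where each line had 2 arrays from J and 1 from M, it read 6.02, 5.91 and 5.16 in HaCaT-HRAS, 7.56, 7.22 and 6.57 in HaCaT-PIK3CA, 8.03, 8.05 and 7.11 in HaCaT-EGFR, and 7.91, 7.48 and 7.00 in HaCaT-Mock. The batch M array was the lowest in each line, and every HaCaT-HRAS array lay below those of the other 3 lines. HaCaT-HRAS differed from HaCaT-Mock by -1.77 (SE 0.177, adjusted p = 1.35e-11), or 3.4-fold lower, with -1.73 within batch J and -1.84 within batch M.

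MPPED2, the metallophosphoesterase, was lowest in HaCaT-HRAS and intermediate in HaCaT-PIK3CA. Its PBS levels were 3.10, 3.24 and 3.36 in HaCaT-HRAS, 4.60, 5.01 and 4.67 in HaCaT-PIK3CA, 6.33 and 6.18 in HaCaT-EGFR, and 6.50, 5.80 and 6.51 in HaCaT-Mock. HaCaT-HRAS and HaCaT-PIK3CA overlapped with no other line, and HaCaT-EGFR lay within HaCaT-Mock's range. The scramble siRNA levels were 3.28, 3.22 and 3.73 in HaCaT-HRAS, 4.74, 5.02 and 4.81 in HaCaT-PIK3CA, 6.32, 6.33 and 6.31 in HaCaT-EGFR, and 6.05, 5.77 and 5.56 in HaCaT-Mock. HaCaT-HRAS differed from HaCaT-Mock by -2.38 (SE 0.169, adjusted p = 6.7e-17) with -2.66 within batch J and -1.83 within batch M. All 23 HaCaT-HRAS arrays, whatever their treatment, had a log2 level of 3.10 to 3.73, where the lowest value of any probe set was 2.65. No fold is given for so low a level.

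**Figure D2:**
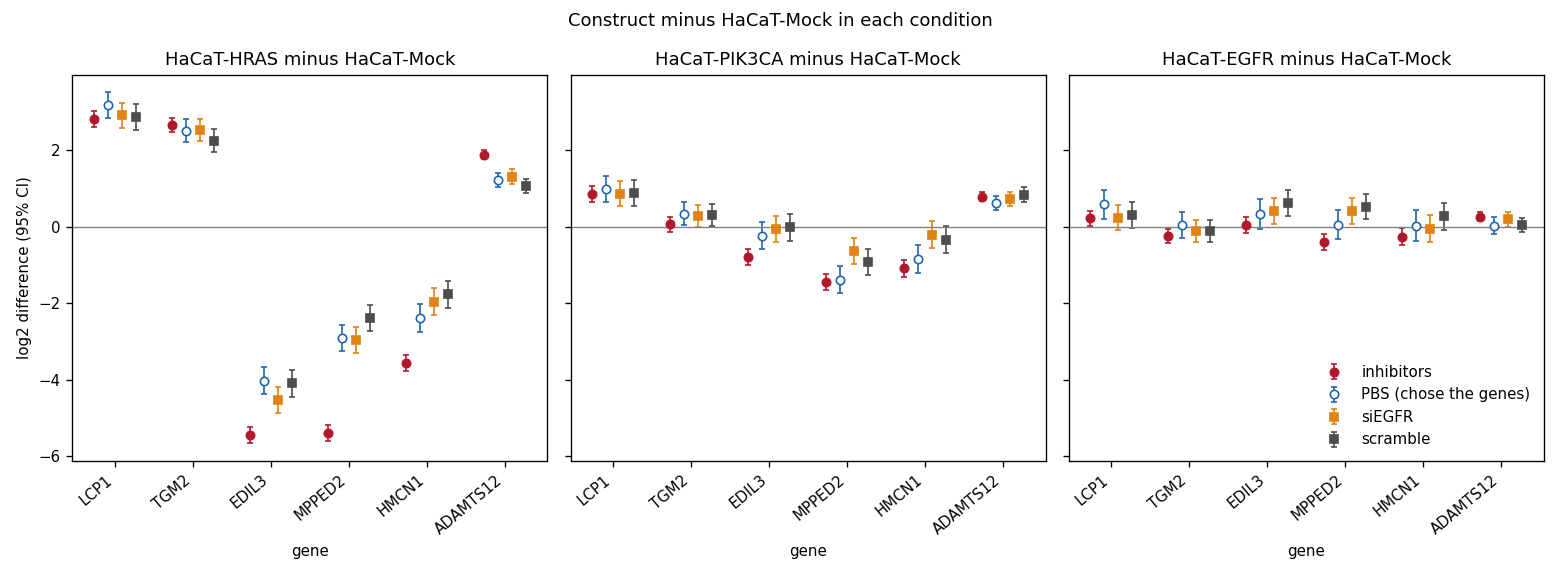
Log2 difference of each construct from HaCaT-Mock (y axis) with its 95% interval, for the 6 genes (x axis) under inhibitors, siEGFR, scramble siRNA and PBS; open PBS markers show the contrast that chose the genes. Under inhibitors, siEGFR and scramble siRNA the HaCaT-HRAS intervals exclude 0 for all 6 genes, while most HaCaT-EGFR intervals lie near 0. The PBS intervals are a description and are not read against 0.

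The PBS differences of HaCaT-HRAS from HaCaT-Mock, which took part in the choice, were 3.17 for LCP1, 2.51 for TGM2, 1.22 for ADAMTS12, -4.03 for EDIL3, -2.39 for HMCN1 and -2.91 for MPPED2. In HaCaT-HRAS all 6 genes passed the test against HaCaT-Mock on scramble siRNA arrays, 3 higher and 3 lower, where 14.9% of all genes passed, 6.96% higher and 7.93% lower. All 6 also passed under siEGFR, where 15.6% of genes passed, and under the inhibitors, where 38.2% did. The differences under siEGFR ran from -4.54 for EDIL3 to 2.91 for LCP1, and under the inhibitors from -5.46 for EDIL3 to 2.82 for LCP1. TGM2 stood 2.53 and 2.66 above HaCaT-Mock in those 2 conditions, and HMCN1 stood at -1.97 and -3.57. The HaCaT-Mock arrays differ between these conditions, so each is a separate set of arrays, and the direction of each gene was the same as under PBS. In HaCaT-HRAS against HaCaT-PIK3CA under scramble siRNA, 5 of 6 genes passed, where 12.3% of all genes did: LCP1 at 2.00, TGM2 at 1.94, EDIL3 at -4.08, MPPED2 at -1.45 and HMCN1 at -1.42.

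HaCaT-PIK3CA differed from HaCaT-Mock in few genes under scramble siRNA, and 3 of the 6 were among them. Under PBS the differences, which took part in the choice, were 0.98 for LCP1, 0.34 for TGM2, 0.62 for ADAMTS12, -0.24 for EDIL3, -0.86 for HMCN1 and -1.38 for MPPED2. Under scramble siRNA, LCP1 (0.88, SE 0.166, adjusted p = 0.0134) and ADAMTS12 (given above) were higher and MPPED2 (-0.94, SE 0.169, adjusted p = 0.00986) was lower, where 0.0303% of all genes (6 genes) passed. TGM2 at 0.31 and HMCN1 at -0.34 did not pass (adjusted p = 0.844 and 0.923). 2 of these 3 calls rested on single arrays. The adjusted p of LCP1 was 0.0853, 0.112 and 0.0998 without HaCaT-Mock scramble array 1, 2 or 3 and 0.159 without HaCaT-PIK3CA scramble array 1. That of MPPED2 was 0.121 without HaCaT-Mock scramble array 1 and 0.129 without HaCaT-PIK3CA scramble array 1. ADAMTS12 passed whichever array was left out.

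With siEGFR, 2 of the 6 genes passed in HaCaT-PIK3CA against HaCaT-Mock, where 0.0455% of all genes did. ADAMTS12 was 7.03, 7.28 and 7.37 in HaCaT-PIK3CA and 6.53, 6.31 and 6.65 in HaCaT-Mock, a difference of 0.73 (SE 0.0944, adjusted p = 6.5e-06). LCP1 was 7.42, 7.35 and 7.79 in HaCaT-PIK3CA and 6.58, 6.50 and 6.88 in HaCaT-Mock, a difference of 0.87 (SE 0.166, adjusted p = 0.00926). Neither gene's arrays overlapped between the lines. The LCP1 call was lost (adjusted p 0.0505 to 0.115) without HaCaT-PIK3CA siEGFR array 1, 2 or 3 or HaCaT-Mock siEGFR array 2 or 3. Under the inhibitors, 5 of 6 genes passed, where 25.4% of all genes did: MPPED2 at -1.44 (SE 0.107, adjusted p = 2.45e-15), HMCN1 at -1.09 (SE 0.112, adjusted p = 9.67e-11), LCP1 at 0.87 (SE 0.105, adjusted p = 1.03e-08), EDIL3 at -0.79 (SE 0.109, adjusted p = 1.6e-07) and ADAMTS12 at 0.78 (SE 0.0598, adjusted p = 5.5e-15). TGM2 did not, at 0.06 (95% interval -0.13 to 0.24).

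HaCaT-EGFR was close to HaCaT-Mock in these genes. Under PBS the 6 differences ran from 0.02 (HMCN1) to 0.58 (LCP1). Under scramble siRNA only EDIL3 passed, at 0.62 (SE 0.171, adjusted p = 0.036), where 2.38% of all genes did, and it no longer passed when any 1 of the 6 arrays compared was left out (adjusted p 0.0678 to 0.192). Under siEGFR 0 of 6 passed in the limma fit, 2 had an unadjusted p under 0.05, and 3.16% of all genes passed. Under the inhibitors 2 of 6 passed, where 12.9% of all genes did: MPPED2 at -0.41 (SE 0.103, adjusted p = 0.0039) and ADAMTS12 at 0.26 (SE 0.0578, adjusted p = 0.00101).

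Under siEGFR EDIL3 was higher in every line, and TGM2 was lower and HMCN1 higher in some. The study's methods name a single siRNA against EGFR. An effect of losing EGFR thus cannot be told apart from another effect of that siRNA. EDIL3 under siEGFR was 5.20, 4.76 and 4.52 in HaCaT-HRAS, 9.46, 9.44 and 9.03 in HaCaT-PIK3CA, 9.91, 9.86 and 9.53 in HaCaT-EGFR, and 9.59, 9.48 and 9.02 in HaCaT-Mock, set against the scramble values above. No siEGFR array overlapped the scramble arrays of its own line, and the difference was 0.61 (SE 0.171, adjusted p = 0.018) in HaCaT-HRAS, 1.02 (SE 0.171, adjusted p = 1.34e-05) in HaCaT-PIK3CA, 0.84 (SE 0.171, adjusted p = 0.000393) in HaCaT-EGFR and 1.05 (SE 0.171, adjusted p = 8e-06) in HaCaT-Mock. The HaCaT-HRAS call was lost without HaCaT-HRAS siEGFR array 1 (adjusted p = 0.168) or scramble array 2 (adjusted p = 0.106). Within batches J and M the EDIL3 differences were 0.69 and 0.44 in HaCaT-HRAS and 1.04 and 1.07 in HaCaT-Mock.

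HMCN1 under siEGFR was 6.43, 6.38 and 5.73 in HaCaT-HRAS, 8.17, 8.23 and 7.40 in HaCaT-PIK3CA, 8.43, 8.16 and 7.69 in HaCaT-EGFR, and 8.59, 8.59 and 7.27 in HaCaT-Mock. It exceeded scramble siRNA by 0.82 (SE 0.177, adjusted p = 0.000684) in HaCaT-PIK3CA and 0.69 (SE 0.177, adjusted p = 0.00511) in HaCaT-Mock. The values of 0.49 in HaCaT-HRAS and 0.36 in HaCaT-EGFR did not pass. The HaCaT-Mock call was lost without HaCaT-Mock siEGFR array 1 (adjusted p = 0.0523) or 2 (0.0517) or scramble array 2 (0.066). TGM2 under siEGFR was 8.11, 8.18 and 8.27 in HaCaT-HRAS, 5.96, 5.88 and 5.97 in HaCaT-PIK3CA, 5.57, 5.17 and 5.85 in HaCaT-EGFR, and 5.60, 5.47 and 5.89 in HaCaT-Mock. Within each line the siEGFR arrays were all lower than the scramble arrays. The TGM2 differences were -0.50 (SE 0.145, adjusted p = 0.0149) in HaCaT-PIK3CA, -0.48 (SE 0.145, adjusted p = 0.0227) in HaCaT-EGFR and -0.47 (SE 0.145, adjusted p = 0.0232) in HaCaT-Mock, and -0.19 in HaCaT-HRAS did not pass. Each of these 3 TGM2 calls depended on single arrays: it was lost without HaCaT-PIK3CA scramble array 1 (adjusted p = 0.16) or siEGFR array 3 (0.0603), without HaCaT-EGFR siEGFR array 2 (0.269) or scramble array 1 (0.051) or 2 (0.11), and without HaCaT-Mock siEGFR array 1 (0.0667) or 2 (0.132) or scramble array 1 (0.177).

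MPPED2 rose under siEGFR in HaCaT-PIK3CA (0.74, SE 0.169, adjusted p = 0.00128), and its differences in HaCaT-HRAS (-0.15), HaCaT-EGFR (0.32) and HaCaT-Mock (0.43) did not pass. LCP1 ranged from -0.13 to -0.03 and ADAMTS12 from -0.22 to 0.13 over the lines, none of which passed. By line, 1 of 6 genes passed in HaCaT-HRAS (6.29% of all genes), 4 in HaCaT-PIK3CA (11.6%), 2 in HaCaT-EGFR (9.46%) and 3 in HaCaT-Mock (10.8%). Over the mean of the 4 lines 4 of 6 passed, where 28.4% of all genes did: EDIL3 at 0.88 (SE 0.0857, adjusted p = 1.87e-12), HMCN1 at 0.59 (SE 0.0885, adjusted p = 2.74e-07), MPPED2 at 0.34 (SE 0.0845, adjusted p = 0.00136) and TGM2 at -0.41 (SE 0.0727, adjusted p = 7.36e-06). Beside these, all 4 measured keratinocyte markers were higher under siEGFR, with a median of 0.32, and their part in the result was not tested. A test of whether the siEGFR response differed between a construct and HaCaT-Mock passed for 0 of 6 genes in any construct in the limma fit, where 0.0253%, 0% and 0.0101% of all genes passed for HaCaT-HRAS, HaCaT-PIK3CA and HaCaT-EGFR. At an unadjusted p under 0.05 it was 1 gene in HaCaT-HRAS (MPPED2, -0.58) and 0 in the other 2.

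Under the 3 inhibitors MPPED2 and EDIL3 had the widest changes, MPPED2 in 3 of the 4 lines. The contrast shares its PBS arrays with the choice of the genes, so its p-values here and below are a description. MPPED2 under the inhibitors was 3.16 at the lowest, 3.30 at the median and 3.44 at the highest over 9 HaCaT-HRAS arrays, all within the range seen in the line at large. In HaCaT-PIK3CA it was 6.58 at the lowest, 7.20 at the median and 7.71 at the highest over 8 arrays. In HaCaT-EGFR it was 7.60 at the lowest, 8.31 at the median and 8.78 at the highest over 9 arrays. In HaCaT-Mock it was 7.97 at the lowest, 8.82 at the median and 9.41 at the highest over 9 arrays. In the last 3 lines every inhibitor array lay above every PBS array of the line. The difference from PBS was 2.50 (SE 0.141, adjusted p = 7.19e-20) in HaCaT-PIK3CA, 2.09 (SE 0.163, adjusted p = 5.36e-15) in HaCaT-EGFR and 2.56 (SE 0.139, adjusted p = 7.52e-21) in HaCaT-Mock, rises of 5.66-, 4.27- and 5.89-fold. In HaCaT-HRAS it was 0.08 (95% interval -0.20 to 0.36), with 0.16 within batch J and -0.07 within batch M.

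EDIL3 rose in all 4 lines, in HaCaT-HRAS not in every setting. Under the inhibitors it was 5.05 at the lowest, 5.28 at the median and 5.92 at the highest in HaCaT-HRAS, overlapping the PBS arrays. In HaCaT-PIK3CA it was 9.01 at the lowest, 10.11 at the median and 10.49 at the highest, and the lowest value came from the array labelled HaCaT-PIK3CA afatinib 1. In HaCaT-EGFR it was 10.43 at the lowest, 10.82 at the median and 11.18 at the highest, and in HaCaT-Mock 10.35 at the lowest, 10.81 at the median and 11.13 at the highest. The differences from PBS were 0.69 (SE 0.14, adjusted p = 0.000984) in HaCaT-HRAS, 1.57 (SE 0.143, adjusted p = 2.08e-12) in HaCaT-PIK3CA, 1.83 (SE 0.165, adjusted p = 7.21e-13) in HaCaT-EGFR and 2.12 (SE 0.141, adjusted p = 9.33e-18) in HaCaT-Mock. The HaCaT-HRAS call was lost without HaCaT-HRAS PBS array 3 (0.58, adjusted p = 0.0539), in a fit of batch J alone (adjusted p = 0.202) and with the replicate number as a block (adjusted p = 0.152). Within batch J the EDIL3 differences were 0.58, 1.44, 1.83 and 2.19 in the same lines.

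TGM2 fell in all 4 lines, in HaCaT-HRAS not in every setting. In HaCaT-HRAS it was 8.04 at the lowest, 8.16 at the median and 8.28 at the highest, all below the PBS arrays. In HaCaT-PIK3CA it was 4.98 at the lowest, 5.68 at the median and 5.74 at the highest, in HaCaT-EGFR 4.79 at the lowest, 5.29 at the median and 5.51 at the highest, and in HaCaT-Mock 5.12 at the lowest, 5.52 at the median and 5.61 at the highest. Only in HaCaT-Mock did inhibitor and PBS arrays overlap, at its PBS array 3. The differences were -0.55 (SE 0.119, adjusted p = 0.00206) in HaCaT-HRAS, -0.98 (SE 0.121, adjusted p = 7.29e-09) in HaCaT-PIK3CA, -0.99 (SE 0.14, adjusted p = 9.73e-08) in HaCaT-EGFR and -0.70 (SE 0.12, adjusted p = 3.8e-06) in HaCaT-Mock. In HaCaT-Mock the difference was -1.02 within batch J and -0.15 within batch E, which holds that PBS array. Within batch J it was -0.53 in HaCaT-HRAS, -1.0 in HaCaT-PIK3CA and -1.03 in HaCaT-EGFR. The HaCaT-HRAS call was lost in a fit of batch J alone (adjusted p = 0.111) and with the replicate number as a block (adjusted p = 0.0749).

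HMCN1 rose under the inhibitors in HaCaT-PIK3CA (0.79, SE 0.147, adjusted p = 3.68e-05), HaCaT-EGFR (0.74, SE 0.171, adjusted p = 0.000477) and HaCaT-Mock (1.03, SE 0.146, adjusted p = 8e-08), and stood at -0.16 in HaCaT-HRAS (95% interval -0.45 to 0.13). The HaCaT-PIK3CA difference was 0.47 within batch J and 1.39 within batch M, the batch whose HMCN1 values were low. ADAMTS12 fell in the same 3 lines, by differences of -0.42 (SE 0.0787, adjusted p = 4.42e-05), -0.35 (SE 0.091, adjusted p = 0.00225) and -0.58 (SE 0.0778, adjusted p = 1.8e-08), and stood at 0.08 in HaCaT-HRAS (95% interval -0.07 to 0.24). On the gene's dimmer probe set 221421_s_at the ADAMTS12 difference was -0.14 in HaCaT-PIK3CA, -0.18 in HaCaT-EGFR and 0.0585 in HaCaT-Mock, and none of the 3 passed. The HaCaT-EGFR call for ADAMTS12 was lost without HaCaT-EGFR PBS array 1 (-0.34, adjusted p = 0.0525). LCP1 rose in HaCaT-Mock (0.42, SE 0.137, adjusted p = 0.0138), a call lost without HaCaT-Mock PBS array 1 (adjusted p = 0.103) or 3 (0.101). In HaCaT-PIK3CA LCP1 was 0.31 (SE 0.139, adjusted p = 0.118), and 0.47 (adjusted p = 1.58e-05) without the array labelled HaCaT-PIK3CA afatinib 1.

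**Figure D3:**
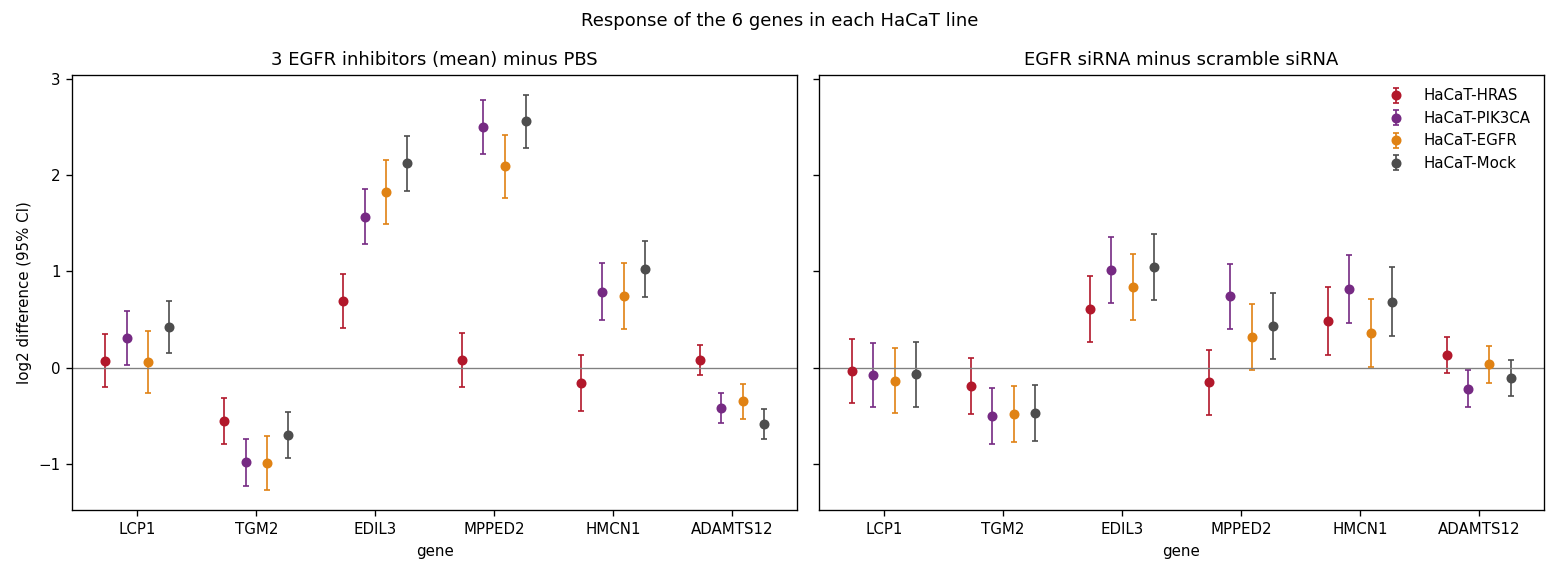
Log2 difference of the inhibitors from PBS (left) and of siEGFR from scramble siRNA (right) on the y axis, with 95% intervals, for the 6 genes (x axis) in each of the 4 lines. For MPPED2 the inhibitor difference is 0.08 in HaCaT-HRAS and at least 2.09 in the other lines.

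Counted by line, 2 of 6 genes passed between inhibitors and PBS in HaCaT-HRAS (6.01% of all genes), 5 in HaCaT-PIK3CA (20.3%), 5 in HaCaT-EGFR (26.4%) and 6 in HaCaT-Mock (28.7%). Over the mean of the 4 lines all 6 passed, where 39.2% of all genes did, from -0.81 for TGM2 to 1.81 for MPPED2. All 4 measured keratinocyte markers were higher there too, with a median of 0.46. As the PBS arrays took part in the choice, nothing is read from these counts of the 6 genes.
The difference of response to the inhibitors between HaCaT-HRAS and HaCaT-Mock contains the contrast that chose the genes when it is taken from PBS, and is a description in that form. It was -2.48 for MPPED2, -1.43 for EDIL3, -1.18 for HMCN1, 0.67 for ADAMTS12, 0.15 for TGM2 and -0.35 for LCP1. The first 4 were called in the fit, as were 9.53% of all genes, and nothing is read from that count. The test was made with scramble siRNA arrays in place of PBS arrays, an alternative added after the values were seen, in which the scramble arrays had siRNA and the inhibitor arrays had none. There 4 of 6 genes passed, where 12.1% of all genes did. The difference of response was -3.01 for MPPED2 (adjusted p = 1.43e-16), -1.36 for EDIL3 (adjusted p = 1.43e-06), -1.80 for HMCN1 (adjusted p = 3.88e-09) and 0.82 for ADAMTS12 (adjusted p = 1.84e-07). TGM2 (0.41) and LCP1 (-0.05) did not pass. MPPED2 in HaCaT-HRAS lay near the lowest array values in every condition, so its difference cannot be read as a lost response. In the arrays that had scramble siRNA together with an agent or PBS, where the one HaCaT-Mock PBS array went against its label, the difference was 0.62 for EDIL3 (adjusted p = 0.27) and -0.44 for HMCN1 (adjusted p = 0.499), so neither call was kept there. The dimmer ADAMTS12 probe set gave -0.0690 with PBS arrays. Within batch J, with PBS arrays, the differences of the same 4 genes were -2.47, -1.61, -1.28 and 0.49. Without the batch term the HMCN1 difference from PBS was -0.93.

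For HaCaT-PIK3CA and HaCaT-EGFR, 0 of 6 genes were called for a difference in inhibitor response from HaCaT-Mock with PBS arrays in the limma fit, where 0.142% and 0.0708% of all genes did, and 1 of 6 in each had an unadjusted p under 0.05. With scramble siRNA arrays in place of PBS arrays 1 of 6 was called in each. The shares above are not those of that fit, so nothing is read from this count. MPPED2's difference of response from PBS was -0.06 in HaCaT-PIK3CA (95% interval -0.45 to 0.34) and -0.46 in HaCaT-EGFR (95% interval -0.89 to -0.04).

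The values of the 3 agents are given side by side, since their doses differed and no test between them was made. The PBS arrays of the choice enter each value, so the counts and p-values are a description. Over the mean of the 4 lines 5 of 6 genes passed under afatinib at 10 nM (37.1% of all genes), 5 under gefitinib at 100 nM (37.5%) and 6 under cetuximab at 100 nM (28.8%). The log2 difference from PBS for MPPED2 was 1.93 with afatinib, 1.92 with gefitinib and 1.58 with cetuximab. For EDIL3 it was 1.62, 1.67 and 1.37, and for TGM2 -0.79, -0.81 and -0.82, in the same order. LCP1 was the exception in its call: it passed with cetuximab at 0.40 (SE 0.0862, adjusted p = 0.000191) and not with afatinib (0.07) or gefitinib (0.18). Without the array labelled HaCaT-PIK3CA afatinib 1, afatinib's LCP1 value was 0.20 (adjusted p = 0.00229), and without HaCaT-HRAS gefitinib array 1, gefitinib's was 0.23 (adjusted p = 0.0324).

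Each group of scramble siRNA with an inhibitor was 1 array, as was HaCaT-Mock under scramble siRNA and PBS. Their spread was taken from other groups, so the p-values below have no replicate check in them. That HaCaT-Mock array, which went against its label, read 10.47 for EDIL3 and 7.63 for MPPED2 and enters the values below. Arrays that had scramble siRNA together with an agent or PBS gave a second reading of the inhibitors, on arrays that the choice did not use. Between inhibitors and PBS among them, 5 of 6 genes passed over the mean of the 4 lines, where 19.3% of all genes did. MPPED2 was 1.48 (SE 0.108, adjusted p = 1.09e-15), EDIL3 1.33 (SE 0.11, adjusted p = 9.51e-14) and HMCN1 0.70 (SE 0.113, adjusted p = 3.31e-06). TGM2 was -0.42 (SE 0.0932, adjusted p = 0.000543) and ADAMTS12 -0.46 (SE 0.0605, adjusted p = 5.63e-08). The directions were those seen without siRNA, except that the dimmer ADAMTS12 probe set gave 0.0421 here. LCP1 was -0.19 and did not pass. That LCP1 value rests on the array labelled HaCaT-Mock scramble PBS 1, at 7.96 the highest LCP1 value of any HaCaT-Mock array, and without it and the array labelled HaCaT-PIK3CA afatinib 1 the value was 0.21 (adjusted p = 0.0243) over the mean of the 3 lines other than HaCaT-Mock.

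The carcinoma lines did not share 1 profile of the 6 genes. LCP1 was 5.43 and 5.54 in SCC1, 8.42 and 8.72 in SCC25, 6.54 in FaDu with no treatment in its label, 6.81 in FaDu under PBS and 5.66 in HaCaT-Parent. SCC25 lay above HaCaT-Mock and SCC1 below it. TGM2 was 7.61 and 7.66 in SCC1, 5.39 and 5.74 in SCC25, 6.19 and 5.84 in the 2 FaDu arrays and 5.48 in HaCaT-Parent. Only SCC1 lay above all HaCaT-Mock arrays under PBS.

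EDIL3 was 3.90 and 3.46 in SCC1, 9.24 and 8.82 in SCC25, 3.87 and 4.74 in FaDu and 9.99 in HaCaT-Parent, and MPPED2 was 3.02 and 3.39, 5.72 and 5.32, 3.82 and 5.62, and 8.29 in the same order. Both were low in SCC1 and in the first FaDu array, and FaDu under PBS was low in EDIL3 only. HMCN1 was 3.12 and 3.06 in SCC1, 4.50 and 4.15 in SCC25, 3.19 and 2.94 in FaDu and 7.08 in HaCaT-Parent, and ADAMTS12 was 4.56 and 4.82, 5.26 and 5.47, 4.96 and 4.20, and 5.54. Every carcinoma array lay below every HaCaT construct array for both of these genes, apart from HMCN1 in SCC25 and HaCaT-HRAS, where the highest SCC25 value was 4.50 and the lowest HaCaT-HRAS value 4.40.

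**Figure D4:**
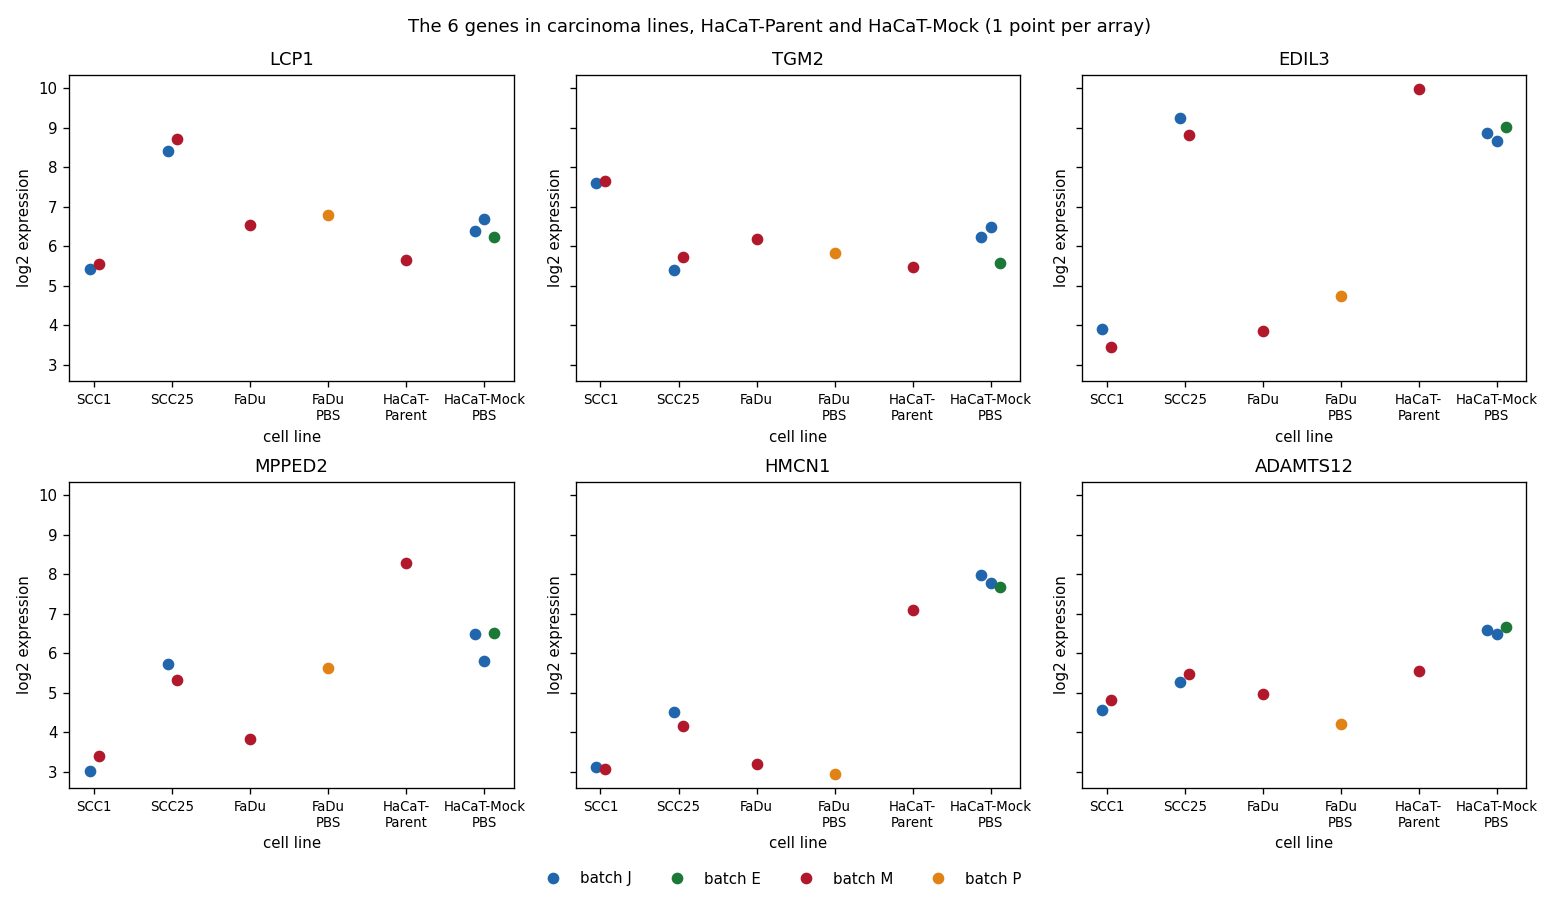
Log2 expression (y axis) of the 6 genes in SCC1, SCC25, FaDu, FaDu under PBS, HaCaT-Parent and HaCaT-Mock under PBS (x axis), 1 point per array, coloured by batch. SCC1 is above HaCaT-Mock for TGM2 alone and SCC25 is above it for LCP1.

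The HaCaT-Mock PBS arrays took part in the choice, so differences from them are a description. In that fit all 6 genes were called in SCC1 (37.4% of all genes), 5 in SCC25 (42.2%), 4 in FaDu (34.6%) and 5 in HaCaT-Parent (18.4%), and nothing is read from these counts. The tests were made against HaCaT-Mock under scramble siRNA, a comparison added after the values were seen, in which the siRNA differs together with the line. All 6 genes passed in SCC1, where 37.3% of all genes did. TGM2 was higher in SCC1 at 1.48 (adjusted p = 1.36e-11) and the other 5 were lower, from -1.31 for LCP1 to -4.57 for EDIL3. In SCC25 5 of 6 passed, where 44.3% of all genes did. LCP1 was higher there at 1.78 (adjusted p = 2.91e-12) and EDIL3 at 0.77 (adjusted p = 0.000445), while HMCN1 at -3.02, ADAMTS12 at -1.26 and TGM2 at -0.59 were lower. MPPED2 in SCC25 did not pass at -0.25 (adjusted p = 0.331). Against the PBS arrays the SCC25 difference was 0.35 for EDIL3 and -0.60 for MPPED2.

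FaDu and HaCaT-Parent entered as 1 array each, with the spread of the other groups taken for theirs, so their calls have no replicate check. In FaDu 4 of 6 were called against HaCaT-Mock under scramble siRNA, where 35% of all genes were: EDIL3 (-4.21), HMCN1 (-3.79), MPPED2 (-1.87) and ADAMTS12 (-1.74). The 2 FaDu arrays differ most for MPPED2, at 3.82 in the array used and 5.62 under PBS, so the MPPED2 value is given as that of 1 array. In HaCaT-Parent, the untransduced line, 5 of 6 were called, where 23.4% of all genes were: MPPED2 (2.60), EDIL3 (1.92), LCP1 (-1.36), ADAMTS12 (-1.16) and TGM2 (-0.74). Between the carcinoma lines, SCC1 minus SCC25 passed for all 6 genes (42.5% of all genes), at -5.35 for EDIL3, -3.09 for LCP1 and 2.07 for TGM2.

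Relatives of the 6 genes, from lists drawn up with earlier results of these data known, passed in part. Against HaCaT-Mock under scramble siRNA in HaCaT-HRAS, where 6.96% of all genes were higher and 7.93% lower, 1 of 7 plastins and other actin bundlers was higher and 0 lower (median 0.12), and 0 of 8 transglutaminases passed in the limma fit, 1 of them at an unadjusted p under 0.05 (median 0.15). Of 6 genes for the EDIL3 relative MFGE8 and RGD-binding integrins 1 was higher and 1 lower (median 0.13), and of 9 hemicentin, fibulin and nidogen genes 1 was higher and 2 lower (median -0.14). Of 17 measured ADAMTS proteases 2 were higher and 1 lower (median -0.10), and MPPED1, the one relative of MPPED2 listed, did not pass (0.10). The median over all genes was -0.0027. PLS1, a plastin of epithelia, was 0.44 higher (SE 0.117, adjusted p = 0.00437), and NID2, a basement membrane nidogen, was -1.49 (SE 0.114, adjusted p = 1.24e-15). The fibulin FBLN1 was -0.47 (SE 0.157, adjusted p = 0.0307) and the fibulin FBLN2 was 0.51 (SE 0.167, adjusted p = 0.0289). ADAMTS1, a protease that cleaves aggrecan and versican, was -1.63 (SE 0.145, adjusted p = 2.45e-13), while ADAMTS6 was 0.83 (SE 0.151, adjusted p = 2.79e-05). ADAMTS9 was 0.61 (SE 0.2, adjusted p = 0.0267). ITGA5, the fibronectin receptor's alpha chain, was 0.40 higher and ITGB5, a partner of the alpha V chain, was -0.22. In HaCaT-PIK3CA 0 genes of these lists passed in the limma fit, and 0 had an unadjusted p under 0.05.

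Under siEGFR, over the mean of the 4 lines, where 28.4% of all genes passed, 2 of 7 actin bundlers were higher and 1 lower, and 2 of 17 ADAMTS proteases were higher and 1 lower. Under the inhibitors, where 39.2% of all genes passed, 3 of 7 actin bundlers were higher and 3 lower, and 1 of 17 ADAMTS proteases was higher and 2 lower. ADAMTS6 was -0.31 under siEGFR and -1.04 under the inhibitors, ADAMTS9 was 0.62 under the inhibitors, and ADAMTS1 was 0.51 under siEGFR and 0.06 under the inhibitors, the last of which did not pass. PLS1 was 0.38 under siEGFR and -0.27 under the inhibitors, so its direction differed between the 2 ways of acting on EGFR. Among the 8 transglutaminases 1 was higher under each, TGM1, the enzyme of the cornified envelope, named here after its values were seen, at 0.54 under siEGFR and 1.27 under the inhibitors. TGM2 fell in both.

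Cell type markers gave the values that stand beside these results. Of 4 measured keratinocyte markers 1 was lower in HaCaT-HRAS and 2 were higher in HaCaT-EGFR than in HaCaT-Mock under scramble siRNA. Their summed linear level was 7905 to 17088 in HaCaT-HRAS, 9052 to 26947 in HaCaT-PIK3CA, 13492 to 33141 in HaCaT-EGFR and 10137 to 29008 in HaCaT-Mock. All 4 lines thus kept keratinocyte transcripts. Under the inhibitors 3 of the 4 keratinocyte markers were lower in HaCaT-HRAS than in HaCaT-Mock (median -0.63). Under scramble siRNA 0 of 5 endothelial and 0 of 7 fibroblast markers passed in any construct in the limma fit, with at most 1 of each at an unadjusted p under 0.05. Under the inhibitors 1 endothelial marker was lower in HaCaT-HRAS than in HaCaT-Mock, and 1 fibroblast marker was higher and 2 were lower. In HaCaT-PIK3CA 1 endothelial marker was higher and 2 lower, and 1 fibroblast marker was higher and 1 lower. Of 6 leukocyte markers 1 was higher in HaCaT-HRAS and 1 in HaCaT-PIK3CA under the inhibitors, where 38.2% and 25.4% of all genes passed. The part of these marker shifts and of the keratinocyte shift in the 6 genes' levels was not tested.

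Across the 40 group levels, adjusted for batch, LCP1, TGM2 and ADAMTS12 correlated positively with each other (r = 0.87 to 0.89) and negatively with EDIL3, HMCN1 and MPPED2. EDIL3 and TGM2 were the closest opposite pair (r = -0.98), and EDIL3 and MPPED2 the closest like pair (r = 0.96). The 40 groups share lines and batches, 10 groups to a line, so these values describe the line differences again. By the same measure the 3 genes most like LCP1 were PTGS2, NFKBIE and BACE2 (r = 0.96, 0.96 and 0.95), and those most like TGM2 were PRR9, SPRR3 and MARCHF4 (0.98, 0.98 and 0.97). ADAMTS12 was most like KRT8, SLC27A5 and LAMB1 (each 0.94), EDIL3 like CAT, USP9X and BDH2 (0.99, 0.99 and 0.98), HMCN1 like MN1, KITLG and HACD4 (each 0.97) and MPPED2 like ID1, PTN and TBC1D9 (0.99, 0.98 and 0.98).

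Other probe sets of these genes were dimmer, with means of 4.66 to 5.42 over the construct arrays. For HaCaT-HRAS against HaCaT-Mock under scramble siRNA, TGM2 read 1.75 and 1.66 on 2 of its 3 other probe sets (211003_x_at and 211573_x_at) and 0.00 on the last (216183_at). EDIL3 read -0.50 and -0.57 on its 2 others, MPPED2 -0.69 and ADAMTS12 0.30 on their 1 other. LCP1 and HMCN1 had a single annotated probe set each.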

How the data were processed

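The authors hybridised RNA of each sample to Affymetrix U133 Plus 2.0 arrays. The deposited values were on a log2 scale (2.65 to 14.5 over 54675 probe sets, array medians 5.08 to 5.18). The study's methods describe frozen robust multiarray analysis followed by a batch correction, and the submitters' processing notes name affy with no version. Whether the deposited values include that correction is not stated. Of the probe sets, 41091 carried 1 gene symbol in GEO's platform annotation, 1801 carried several and 11777 were not listed. Each of 19775 genes was represented by the probe set of greatest average across the construct arrays.

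Differences were estimated with limma 3.58.1 in R 4.3.3 in 1 model of 40 groups and the label's batch letter over the 89 construct arrays (47 residual degrees of freedom). A second model added SCC1, SCC25, FaDu and HaCaT-Parent arrays (49 residual degrees of freedom), and the FaDu PBS array, alone in its batch, was given as a value only. Because PBS arrays took part in the choice, carcinoma lines and differences of response were tested with scramble siRNA arrays in their place. P-values were moderated by eBayes, adjusted by Benjamini-Hochberg over all genes and called under 0.05. All tests were two-sided. The code was tested on simulated data. The number of arrays limits the precision.

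The 6 genes, the lists of their relatives and the markers were chosen with earlier results of these data known. Relatives named are those that passed in HaCaT-HRAS or HaCaT-PIK3CA against HaCaT-Mock under scramble siRNA, at most 4 per list, and genes of like pattern are the 3 with the highest correlation. Alternatives changed the batch term, array weights, probe set, arrays used and replicate block, and left out each array in turn.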

Additional observations from a re-analysis of the deposited data

Results flagged for a closer look

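The response to the inhibitors, taken as the log2 difference from PBS, was called different between HaCaT-HRAS and HaCaT-Mock for 4 of the 6 genes in the fit of the difference itself (limma), as it was for 9.53% of all genes. The PBS arrays of these lines chose the genes, so these values are a description. For MPPED2 the response was 0.08 in HaCaT-HRAS and 2.56 in HaCaT-Mock, a difference of -2.48. For EDIL3 it was 0.69 in HaCaT-HRAS and 2.12 in HaCaT-Mock, a difference of -1.43. HMCN1 stood at -0.16 in HaCaT-HRAS and 1.03 in HaCaT-Mock, a difference of -1.18. ADAMTS12 stood at 0.08 in HaCaT-HRAS and -0.58 in HaCaT-Mock, a difference of 0.67. With scramble siRNA arrays in place of PBS arrays the differences were -3.01 for MPPED2 (adjusted p = 1.43e-16), -1.36 for EDIL3 (adjusted p = 1.43e-06), -1.80 for HMCN1 (adjusted p = 3.88e-09) and 0.82 for ADAMTS12 (adjusted p = 1.84e-07, Benjamini-Hochberg adjustment over 19775 genes). In that fit 12.1% of all genes passed. In the arrays that had scramble siRNA together with an agent or PBS, the EDIL3 difference turned direction and the HMCN1 difference was smaller. The HaCaT-Mock PBS array there went against its label. The dimmer ADAMTS12 probe set gave the other direction with PBS arrays. MPPED2 was 3.10 to 3.73 over all 23 HaCaT-HRAS arrays, whatever their treatment, where the lowest value of any probe set was 2.65. At so low a level a missing response cannot be told apart from one too dim to show.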

How the results depend on the processing

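Each value was recomputed without the batch term, in batch J alone, with array weights, with the replicate number as a block, on other probe sets and with arrays left out. Calls on all 6 genes in HaCaT-HRAS against HaCaT-Mock were kept under scramble siRNA, siEGFR and the inhibitors in every setting on the chosen probe sets, as were the differences of inhibitor response of HaCaT-HRAS for MPPED2, EDIL3, HMCN1 and ADAMTS12, except HMCN1 without the batch term, ADAMTS12 in batch J alone, and HMCN1 and EDIL3 in the fit on scramble siRNA arrays with an agent. The array numbers did not pair samples (correlation of same-numbered deviations -0.209 to 0.222, median 0.003), and in the fit with the replicate block 1514 genes passed for HaCaT-HRAS against HaCaT-Mock under scramble siRNA, against 1546 of the same 66 arrays without the block. Over all genes that comparison called 2945, and 1359 without a batch term to 5099 with array weights, and HaCaT-PIK3CA against HaCaT-Mock called 6, and 1 to 143.

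The number of the 6 genes called moved in the smaller comparisons. Without the batch term it was 1 in HaCaT-PIK3CA and 0 in HaCaT-EGFR against HaCaT-Mock under scramble siRNA, 1 in HaCaT-PIK3CA under siEGFR, 0, 2, 1 and 1 for siEGFR in HaCaT-HRAS, HaCaT-PIK3CA, HaCaT-EGFR and HaCaT-Mock, and 3 in HaCaT-Parent. In batch J alone it was 1 and 0 in HaCaT-PIK3CA and HaCaT-EGFR under scramble siRNA, 1 in HaCaT-PIK3CA under siEGFR, 0 in HaCaT-EGFR under the inhibitors, 0 for siEGFR in HaCaT-HRAS and in HaCaT-EGFR, and 0 for the inhibitors in HaCaT-HRAS. The replicate block gave 1, 0, 1 and 0 for the first 4 of these and 0 for siEGFR and for the inhibitors in HaCaT-HRAS, as did the same arrays without the block. Array weights gave 3 and 5 in HaCaT-EGFR under scramble siRNA and the inhibitors, 2 for siEGFR in HaCaT-HRAS and 1 for the inhibitor response of HaCaT-EGFR. Fits on scramble arrays or siRNA arrays alone gave 2 in HaCaT-EGFR under scramble siRNA and 2 for siEGFR in HaCaT-HRAS. Calls over all genes moved too. With array weights they rose from 471 to 1997 and from 2554 to 5389 in HaCaT-EGFR under scramble siRNA and the inhibitors. For siEGFR in HaCaT-HRAS they went from 1243 to 3169 with array weights and to 310 without the batch term. In batch J alone they fell from 2554 to 260 in HaCaT-EGFR under the inhibitors. For the inhibitors in HaCaT-HRAS they fell from 1189 to 65 there. Nothing is read from these moves in the counts of the 6 genes.

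The next settings were chosen after seeing the data. Without the 2 arrays that went against their labels HaCaT-EGFR had 2 and 1 genes called under scramble siRNA and siEGFR, and without the 4 arrays that stood apart 3, 1 and 4 (the last under the inhibitors). Over all genes, calls in HaCaT-EGFR under siEGFR rose from 625 to 1398 without the 4 arrays. Scramble siRNA arrays in place of PBS arrays gave 1 each for the inhibitor response of HaCaT-PIK3CA and HaCaT-EGFR. No share over all genes stands beside that count, and nothing is read from it. For scramble siRNA arrays with an agent, where each inhibitor group is 1 array, no count is given. In these the HaCaT-Mock arm has only the PBS array that went against its label, and batch and line cannot be told apart, and the difference of response turned for LCP1 (1.58, 1.55 and 1.63 in HaCaT-HRAS, HaCaT-PIK3CA and HaCaT-EGFR), EDIL3 (0.62, 1.10 and 1.20), MPPED2 and HMCN1 in HaCaT-PIK3CA (1.01 and 1.00), and, with no call in either fit, TGM2 in HaCaT-HRAS (-0.14) and MPPED2 and HMCN1 in HaCaT-EGFR (0.40 and 0.63). Against HaCaT-Mock scramble arrays in place of PBS arrays SCC25 gained the EDIL3 call and lost the MPPED2 call. Without the 2 arrays LCP1 passed for a difference of response in HaCaT-HRAS (-0.36, adjusted p = 0.0328). LCP1 under inhibitors among scramble arrays was 0.21 without the 2 and without the 4 arrays.

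Leaving out 1 array at a time gave 6 of 6 for HaCaT-HRAS against HaCaT-Mock in 3 conditions, 1 to 3 in HaCaT-PIK3CA and 0 in HaCaT-EGFR under scramble siRNA, 1 to 2 and 0 under siEGFR, and 5 and 2 to 3 under the inhibitors. siEGFR called 0 to 1 in HaCaT-HRAS, 3 to 4 in HaCaT-PIK3CA, 1 to 2 in HaCaT-EGFR and 1 to 3 in HaCaT-Mock, and the inhibitors 1 to 2, 5 to 6, 4 to 5 and 5 to 6 in the same lines. Groups of 1 array could not be left out. HaCaT-EGFR TGM2 passed against HaCaT-Mock under the inhibitors without HaCaT-EGFR afatinib array 1 (adjusted p = 0.0291) or 3 (0.0384) or HaCaT-Mock cetuximab array 1 (0.0376).

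Dimmer probe sets turned some directions, and the cause was not tested. On TGM2 216183_at these were HaCaT-HRAS against HaCaT-Mock under scramble siRNA (-0.00064) and siEGFR (-0.0113), against HaCaT-PIK3CA (-0.18), inhibitors against PBS in HaCaT-PIK3CA (0.14) and HaCaT-EGFR (0.0081), afatinib (0.0458), inhibitors among scramble arrays (0.0913), SCC25 (0.0541) and HaCaT-Parent (0.20). On ADAMTS12 221421_s_at they were HaCaT-PIK3CA under siEGFR (-0.000797), HaCaT-HRAS, HaCaT-PIK3CA and HaCaT-EGFR under the inhibitors (-0.0739, -0.108 and -0.0680), inhibitors against PBS in HaCaT-Mock (0.0585) and among scramble arrays (0.0421), the HaCaT-HRAS difference of response (-0.0690), SCC1 (0.0800), FaDu (0.34), HaCaT-Parent (0.155) and SCC1 against SCC25 (0.11). On EDIL3 1558643_s_at they were siEGFR (-0.14) and the inhibitors (-0.12) in HaCaT-HRAS.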
